A study of Mus musculus with 6 samples.

Results

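A set of 10 genes of BMP signalling and the Id family are described here: the inhibitor genes Id1, Id2, Id3 and Id4, the ligand genes Bmp4 and Bmp7, the receptor genes Bmpr1a and Bmpr1b, and the signal transducer genes Smad1 and Smad5. They were chosen by symbol, with earlier results of these data known, and 9 of the 10 were found among the 12316 gene rows of the authors' comparison. Bmp4 has no row among those rows and was not analysed here. The cells were neural stem cells of CD-1 mouse embryos at E14.5, bought from a commercial supplier and kept as a monolayer with EGF and bFGF. After lentiviral transduction, puromycin at 0.5 µg/mL was used for selection. Per the labels, 2 libraries carried Sox4 shRNA 1, 2 carried Sox4 shRNA 2 and 2 carried a scrambled shRNA. The titles mark the 2 libraries of each hairpin p1 and p2, which was read here as different passages. All 6 libraries thus shared the transduction and the selection. The series' own text counts a single hairpin against Sox4, whereas the labels name 2.

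The deposited comparison sets a second condition against a first and names neither, so each fold is that of the second over the first condition, and no hairpin is assigned to either. Levels are in FPKM, in which fragments are divided by transcript length and by the library's mapped fragments. A gene "fell" or "rose" where the authors' Cuffdiff test flagged it, which holds for rows with a q of at most 0.05, and it was lower or higher in the second condition. The table holds 1 level per condition and 0 values per library, so a level has no standard deviation. Depth per library is unknown. A p-value rests on Cuffdiff's own test of the libraries that the authors pooled, and the spread between those libraries cannot be seen here.

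Bone morphogenetic proteins (BMPs) are secreted ligands of the TGF-beta superfamily. They bind complexes of type I and type II receptor kinases, which phosphorylate Smad1, Smad5 and Smad9, and these enter the nucleus with Smad4 to regulate genes. The Id genes are among the best known of these targets: Id proteins have a helix-loop-helix but no DNA-binding region, and they hold basic helix-loop-helix (bHLH) factors in inactive pairs. In neural stem cells, BMP signalling is known to favour quiescence and astrocyte formation, and Id proteins are known to keep proneural bHLH factors in check.

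The promoters of Id2, Id3 and Id4 are shown because their genes had the lowest 3 folds of the 9, and because Id genes are textbook targets of BMP Smads. Each runs from 250 bases before to 50 bases after a RefSeq start, 5′ to 3′ on the gene's own strand, on build GRCm38.p6. Capitals mark GGCGCC, a GC-rich motif bound by BMP Smads, and GTCTG or its other-strand form CAGAC, which holds the core of the Smad binding element.
Id2, chr12:25096043-25096342, minus strand: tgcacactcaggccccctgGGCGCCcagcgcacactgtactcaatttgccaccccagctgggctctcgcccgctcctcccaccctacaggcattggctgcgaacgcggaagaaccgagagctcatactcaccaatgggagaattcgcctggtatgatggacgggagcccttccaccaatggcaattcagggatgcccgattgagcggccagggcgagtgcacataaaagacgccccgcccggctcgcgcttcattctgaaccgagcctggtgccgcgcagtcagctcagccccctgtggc
Id3, chr4:136143572-136143871, plus strand: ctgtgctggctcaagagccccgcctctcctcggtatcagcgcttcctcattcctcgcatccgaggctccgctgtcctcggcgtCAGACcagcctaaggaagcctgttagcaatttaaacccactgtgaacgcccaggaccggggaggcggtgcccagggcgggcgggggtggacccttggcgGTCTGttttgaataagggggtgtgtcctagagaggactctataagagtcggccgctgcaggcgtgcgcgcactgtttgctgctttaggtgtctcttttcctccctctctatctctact
Id4, chr13:48260866-48261165, plus strand: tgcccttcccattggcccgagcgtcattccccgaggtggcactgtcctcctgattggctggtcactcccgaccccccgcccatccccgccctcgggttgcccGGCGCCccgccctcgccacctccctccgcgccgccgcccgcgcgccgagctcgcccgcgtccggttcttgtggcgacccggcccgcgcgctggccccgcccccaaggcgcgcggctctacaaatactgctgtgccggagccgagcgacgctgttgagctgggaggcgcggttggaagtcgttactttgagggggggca

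The Id2 window holds GGCGCC with its first base at -231 from the start, and the Id4 window holds it at -148. The Id3 window lacks GGCGCC and holds GTCTG at -68 on the gene's strand and at -167 on the other strand. Among all 32851 RefSeq windows of this length, 11.9% hold GGCGCC and 49.6% hold GTCTG on either strand, and among windows of genes with a row 22.0% and 46.4% do. CANNTG, the E-box letters that bHLH factors bind, is in the Id2 window at -196 and in neither of the other two, and 72.3% of all windows hold it. Neither AACAAT nor AACAAAG, motifs of the Sox family, is in the Id2, Id3 or Id4 window, and 10.7% and 5.85% of all windows hold them. The GC content was 63.3% for Id2, 60.0% for Id3 and 73.3% for Id4. A match describes letters only, and no binding was measured.

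Of the other members with a window, Bmpr1a holds GGCGCC at -198, and Smad5 holds it in 2 of its 3 windows, which overlap. Bmpr1b holds AACAAAG in all 3 of its windows, of which 2 overlap, and AACAAT in 2 of them. The Smad1 window holds 0 of the motifs searched, and the Bmp4 window holds CANNTG alone.

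The check of the targeted gene gave a level for Sox4 of 83.9 FPKM in the second and 126.8 FPKM in the first condition per the authors' deposited table. The log2 fold was -0.60 with a q of 0.0543 by Cuffdiff there, so it was not called. The deposited q-values imply 13980 tests, more than the 12316 rows present. Recomputed over those rows alone, and so with fewer tests counted, the q of Sox4 was 0.0472, which does not replace the deposited call. Over all rows of the authors' deposited table, 225 fell, which is 1.83%, and 390 rose, which is 3.17%, or 4.99% in either direction. The median log2 fold over all rows was 0.0033, and levels had medians of 12.7 FPKM in the second and 12.5 FPKM in the first condition.

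Of the 4 Id genes Id2 and Id3 fell, and Id1 and Id4 had negative folds that were not called. The 2 falls among 9 members stand beside a share of 1.83% of all rows called lower, and 0 of the 9 rose, beside 3.17% called higher and 4.99% called either way. Because the members were chosen with earlier results of these data known, this contrast is a description and not a test. Summed over the 4 Id genes, the level was 104.8 FPKM in the second and 190.6 FPKM in the first condition. In bulk RNA, fewer cells that express a gene and less of its RNA per cell cannot be told apart.

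Id2 (chromosome 12, 25093799 to 25097140, minus strand, build GRCm38) is a broad inhibitor of bHLH dimers that also binds the retinoblastoma protein. Its level was 38.0 FPKM in the second and 81.9 FPKM in the first condition per the authors' deposited table. The fall was 2.15-fold, a log2 fold of -1.11 with an error of 0.32, taken here as the fold over its deposited statistic, and a q of 0.00304 by Cuffdiff per the authors' deposited table. That q belongs to the lowest p that Cuffdiff gave, 5e-05, which 230 rows share, so it does not rank genes among them. Only 1.41% of all rows had a fold as low or lower. Id2 shares 91.8% of bases over 380 nt with Gm6175, so part of its reads could have been split with that locus.

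Id3 (chromosome 4, 136143497 to 136145755, plus strand) was the most abundant Id gene in both conditions. It stood at 55.7 FPKM in the second and 91.4 FPKM in the first condition per the authors' deposited table. That fall was 1.64-fold, a log2 fold of -0.72 with an error of 0.32 and a q of 0.0135 by Cuffdiff per the authors' deposited table. Rows with a fold as low or lower made up 3.67% of the table.

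Id4 (chromosome 13, 48261228 to 48266026, plus strand), known in the adult brain for holding neural stem cells in quiescence, stood at 6.55 FPKM in the second and 10.7 FPKM in the first condition per the authors' deposited table. Its log2 fold of -0.70 was close to that of Id3, but its error was larger, 0.42, and its q of 0.0963 by Cuffdiff per the authors' deposited table left it uncalled. At an unadjusted p of 0.0061 by Cuffdiff it was 1 of 3 Id genes under 0.05, beside 2155 of all 12316 rows. Its exons overlap A330033J07Rik and Gm49291 on the other strand, and without strand in the counting their reads cannot be told apart from those of Id4.

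Id1 (chromosome 2, 152736251 to 152737410, plus strand), often used as a readout of BMP signalling, was the lowest of the 4 in both conditions. It stood at 4.56 FPKM in the second and 6.65 FPKM in the first condition per the authors' deposited table. Its log2 fold of -0.54 had the largest error of the 9 genes, 0.54, with a q of 0.416 by Cuffdiff per the authors' deposited table.

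The make-up of the Id sum was led by the same pair in both conditions. Id3 gave 53.1% of it in the second and 48.0% in the first condition. Id2 gave 36.3% in the second and 43.0% in the first condition. Id4 gave 6.25% in the second and 5.59% in the first condition, and Id1 gave 4.35% in the second and 3.49% in the first. These shares are descriptions without a test, since neither condition has a spread.

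**Figure D1:**
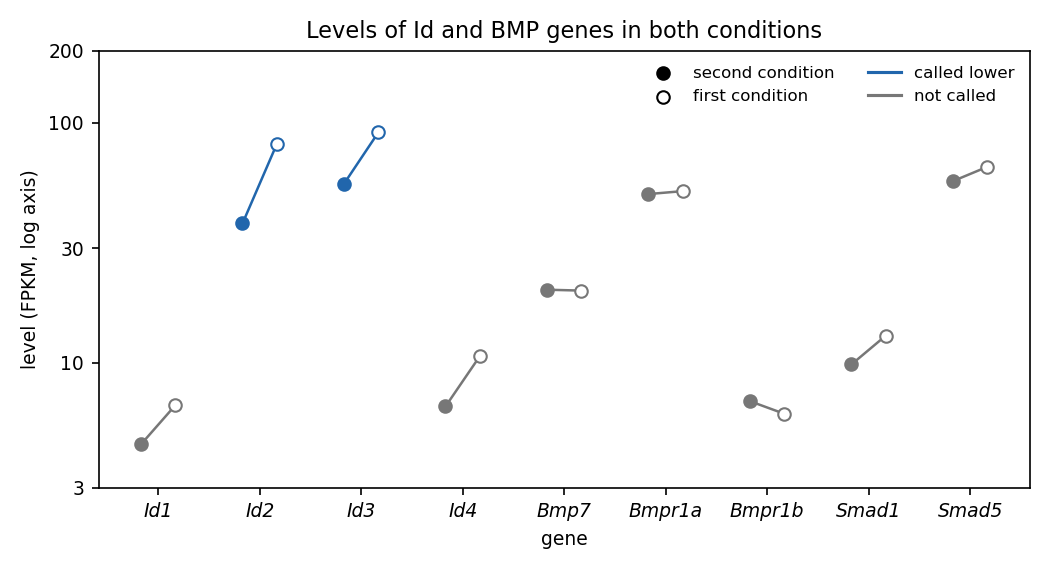
Level in FPKM on a log axis of the 9 genes with a row, with the second condition as a filled point on the left and the first condition as an open point on the right of each pair. Blue marks the 2 genes that fell, Id2 and Id3, and grey the 7 that were not called. All 4 Id genes and both Smad genes lie lower in the second condition, while Bmp7 and Bmpr1a lie nearly level.

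Upstream of the Id genes, none of the 5 BMP members with a row was called: 0 fell, 0 rose, and 0 had an unadjusted p under 0.05 in the authors' Cuffdiff test. Over all rows, 4.99% were called either way, and 2155 of 12316 had an unadjusted p under 0.05 in that test. With 5 genes, counts of 0 do not set them apart from all rows. Their median log2 fold was -0.04, against -0.71 for the 4 Id genes and 0.0033 over all rows. Whether the folds of the 2 groups differ was not tested, since the table gives no value per library.

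Bmp7 (chromosome 2, 172868012 to 172940321, minus strand), a ligand made by the choroid plexus and meninges of the developing brain, was the single BMP ligand of 14 listed that had a row. It stood at 20.13 FPKM in the second and 19.96 FPKM in the first condition per the authors' deposited table. The log2 fold was 0.01 with an error of 0.31, the smallest fold of the 9, and a q of 0.988 by Cuffdiff per the authors' deposited table.

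Both type I receptor genes were measured, and the levels of Bmpr1a were the higher in either condition. Bmpr1a (chromosome 14, 34410734 to 34503341, minus strand) stood at 50.5 FPKM in the second and 51.9 FPKM in the first condition per the authors' deposited table, and its log2 fold was -0.04 with an error of 0.29. Bmpr1b (chromosome 3, 141837136 to 142169425, minus strand) stood at 6.90 FPKM in the second and 6.11 FPKM in the first condition per the authors' deposited table, and its log2 fold was 0.18 with an error of 0.34. Neither was called, at q of 0.955 for Bmpr1a and 0.757 for Bmpr1b by Cuffdiff per the authors' deposited table. The sign of the Bmpr1a fold is not settled: rescaled to the summed levels without the most abundant row, it was 0.03. Its exons overlap Gm17110 on the other strand, with 290 nt in common.

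The receptor-activated Smads had negative folds that were not called. Smad1 (chromosome 8, 79338395 to 79399518, minus strand) stood at 9.82 FPKM in the second and 13.0 FPKM in the first condition per the authors' deposited table. The log2 fold was -0.40 with an error of 0.34, an unadjusted p of 0.0555 and a q of 0.325 by Cuffdiff per the authors' deposited table. Smad5 (chromosome 13, 56703010 to 56742377, plus strand), which shares its role with Smad1, was several times more abundant, at 57.1 FPKM in the second and 65.6 FPKM in the first condition per the authors' deposited table. The log2 fold of Smad5 was -0.20 with an error of 0.29 and a q of 0.645 by Cuffdiff per the authors' deposited table, and Gm27301 lies in its exons on the same strand.

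By level per length, Smad5, Id3 and Bmpr1a headed the order in the second condition, and Id3, Id2 and Smad5 headed it in the first. At the low end stood Id1, Id4 and Bmpr1b in the second and Bmpr1b, Id1 and Id4 in the first condition. Without a spread per condition, neighbours in these orders cannot be told apart by a test.

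**Figure D2:**
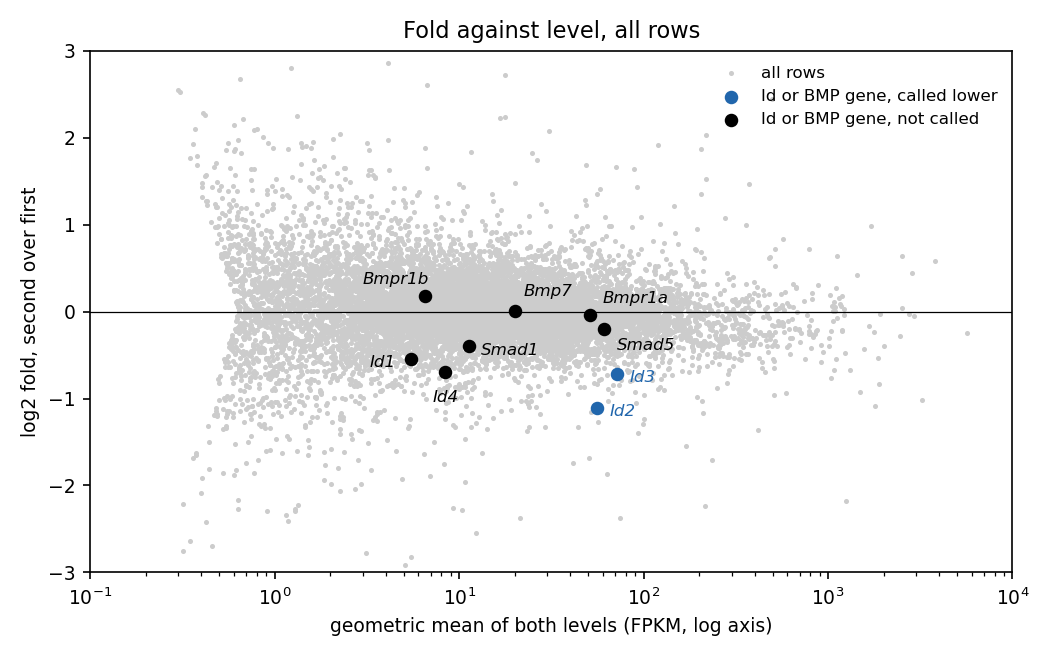
Log2 fold of second over first condition against the geometric mean of both levels in FPKM on a log axis, with all rows in pale grey, the 2 Id genes that fell in blue and the 7 other members in black. Id2 at -1.11 and Id3 at -0.72 lie lowest of the 9, and 8 rows lie outside the axes.

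The wider pathway was taken from lists by role, 99 genes in all with the members, of which 61 had a row. Of these 61, 4 fell, 3 rose and 54 were not called, beside 1.83% and 3.17% of all rows. The 4 falls were Id2, Id3, Rgma and Hes5, and the 3 rises were Sostdc1, Crim1 and Crebbp. The median log2 fold of the 61 was -0.05, against 0.0033 over all rows.

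Among 9 receptor and coreceptor genes with a row, 1 fell and 0 rose, beside 1.83% and 3.17% of all rows. The fall was Rgma, which encodes a membrane-anchored coreceptor for BMPs that also binds neogenin to repel axons. Rgma stood at 47.4 FPKM in the second and 87.6 FPKM in the first condition per the authors' deposited table, and its log2 fold was -0.89 with an error of 0.31 and a q of 0.00304 by Cuffdiff. Its exons overlap A730056A06Rik on the other strand. Its relative Rgmb, at 7.37 FPKM in the second and 8.79 FPKM in the first condition per the authors' deposited table, was not called, with a q of 0.640 by Cuffdiff.

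Bmpr2, the type II BMP receptor, stood at 19.1 FPKM in the second and 13.7 FPKM in the first condition per the authors' deposited table. Its log2 fold of 0.48 had an unadjusted p of 0.0077 and a q of 0.111 by Cuffdiff per the authors' deposited table, and it stayed uncalled. The Bmpr2 transcript of 12899 nt lies in the longest of 10 equal bins of length, where 13.2% of the rows rose. With the median of that bin taken off, its log2 fold was 0.25, with an error of 0.29. Acvr1, a further type I receptor, stood at 12.3 FPKM in the second and 11.1 FPKM in the first condition per the authors' deposited table, and it stayed uncalled. The other receptor genes with a row, Acvr2a, Acvr2b and the neogenin gene Neo1, were not called either, with log2 folds between -0.22 and 0.10.

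Extracellular modulators of BMP activity gave 2 rises and 0 falls among 11 genes with a row, beside 3.17% and 1.83% of all rows. These are calls of single genes, and the role as a whole was not tested. Sostdc1, an extracellular antagonist that binds BMPs and also acts on Wnt signalling, stood at 5.66 FPKM in the second and 1.83 FPKM in the first condition per the authors' deposited table. That rise was 3.09-fold, a log2 fold of 1.63 with an error of 0.53 and a q of 0.00304 by Cuffdiff per the authors' deposited table. Crim1, a transmembrane protein with cysteine-rich repeats that binds BMPs, rose 2.08-fold, to 14.7 FPKM in the second against 7.05 FPKM in the first condition per the authors' deposited table. Its log2 fold of 1.06 had an error of 0.48 and a q of 0.00708 by Cuffdiff per the authors' deposited table, and its exons overlap Fez2 on the other strand.

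The other modulators did not pass the test. Chrdl1, a chordin-like antagonist, stood at 14.4 FPKM in the second and 10.4 FPKM in the first condition per the authors' deposited table, with an unadjusted p of 0.0192 and a q of 0.184 by Cuffdiff. Fstl1, a follistatin-like secreted protein, stood at 12.1 FPKM in the second and 16.1 FPKM in the first condition per the authors' deposited table. That is a log2 fold of -0.40, with an unadjusted p of 0.0380 and a q of 0.268 by Cuffdiff per the authors' deposited table. Twsg1, which binds BMPs together with chordin, was the most abundant of the list, at 31.8 FPKM in the second and 32.2 FPKM in the first condition per the authors' deposited table. Bmp1, despite its name a protease that cleaves chordin, stood at 27.9 FPKM in the second and 28.7 FPKM in the first condition per the authors' deposited table. Noggin (Nog), follistatin (Fst) and gremlin (Grem1) were not analysed here.

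Of the transducers and their intracellular inhibitors, none was called. Smad4, the shared partner, stood at 47.8 FPKM in the second and 49.0 FPKM in the first condition per the authors' deposited table. Of 8 inhibitor genes with a row, 0 fell and 0 rose, beside 1.83% and 3.17% of all rows. In the authors' Cuffdiff test 1 of the 8 had an unadjusted p under 0.05, beside 2155 of all 12316 rows. That gene was Ski, a corepressor of Smads, at 35.1 FPKM in the second and 26.4 FPKM in the first condition per the authors' deposited table, with an unadjusted p of 0.0244 and a q of 0.210 by Cuffdiff. Ppm1a, a phosphatase that acts on Smads and the most abundant inhibitor gene, stood at 37.2 FPKM in the second and 41.1 FPKM in the first condition per the authors' deposited table. Bambi, a decoy receptor and BMP target, stood near 1 FPKM, at 1.05 FPKM in the second and 1.10 FPKM in the first condition per the authors' deposited table. The inhibitory Smad genes Smad6 and Smad7 were not analysed here.

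Cofactors of the BMP Smads gave 1 rise and 0 falls among 9 genes, beside 3.17% and 1.83% of all rows. A positive fold was found for 8 of the 9, beside 6219 of all 12316 rows. With the median of its own length bin taken off each fold, 6 of the 9 were positive and 3 negative. Crebbp, a histone acetyltransferase and coactivator of many factors, rose to 14.7 FPKM in the second against 8.61 FPKM in the first condition per the authors' deposited table. The log2 fold was 0.77 with an error of 0.30 and a q of 0.00304 by Cuffdiff per the authors' deposited table. Ep300, its close relative, stood at 12.2 FPKM in the second and 8.77 FPKM in the first condition per the authors' deposited table, with a q of 0.136 by Cuffdiff. Both are long transcripts, of 10820 nt for Crebbp and 9566 nt for Ep300, in the longest of 10 equal bins of length, where 13.2% of the rows rose. The most abundant cofactor was Map3k7 in the second condition and Xiap in the first. Map3k7, a kinase that BMP receptors can activate, stood at 22.8 FPKM in the second and 19.5 FPKM in the first condition per the authors' deposited table. Xiap, which links the receptors to that kinase, stood at 21.9 FPKM in the second and 21.5 FPKM in the first condition per the authors' deposited table.

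Besides the Id genes, the listed BMP targets had only Bambi and Hey1 among the rows, and neither was called. Hey1, a bHLH repressor of the Hairy family that answers to both Notch and BMP signals in other cell types, stood at 31.5 FPKM in the second and 43.7 FPKM in the first condition per the authors' deposited table. The log2 fold was -0.47 with an unadjusted p of 0.0112 and a q of 0.136 by Cuffdiff per the authors' deposited table. The 6 targets with a row all had negative folds, with a median of -0.62, beside 6097 negative folds among all 12316 rows. Since 4 of the 6 are the Id genes described above, this count and median mostly restate the folds of the Id genes.

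**Figure D3:**
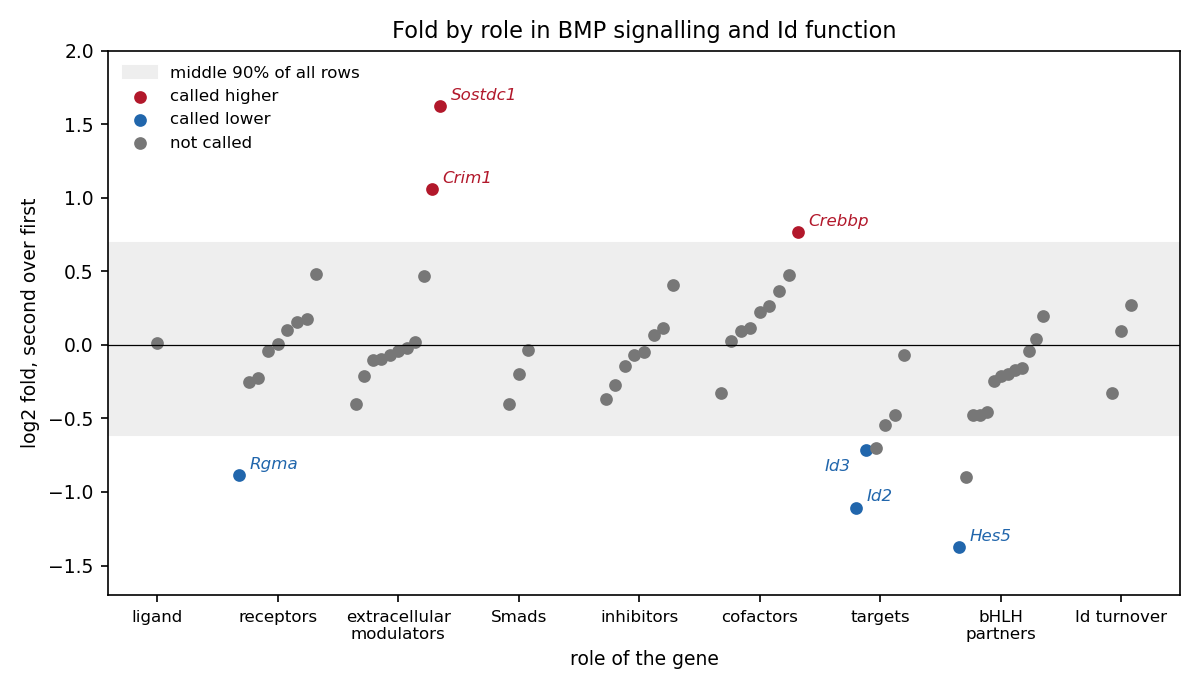
Log2 fold of second over first condition for the 61 listed genes with a row, grouped by role, with each point a gene, red for the 3 that rose, blue for the 4 that fell and grey for those not called. The pale band holds the middle 90% of all rows, between -0.61 and 0.69. Genes listed under several roles appear under each, and the targets, of which 4 are the Id genes, lie below the zero line.

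The bHLH genes whose proteins pair with Id proteins or share their family gave 1 fall and 0 rises among 13 with a row. Over all rows these shares were 1.83% and 3.17%. The E-protein genes Tcf3, Tcf4 and Tcf12, whose products are the main partners of Id proteins, were not called, with log2 folds of 0.20, -0.17 and -0.16 per the authors' deposited table. Tcf12, the most abundant of them, stood at 93.3 FPKM in the second and 104.2 FPKM in the first condition per the authors' deposited table.

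The fall in this list was Hes5, a Notch-induced repressor, at 14.4 FPKM in the second and 37.3 FPKM in the first condition per the authors' deposited table, with a q of 0.00304 by Cuffdiff. On the opposite strand, Gm20421 overlaps exons of Hes5. Its relative Hes1, which also represses proneural genes, stood at 10.6 FPKM in the second and 14.8 FPKM in the first condition per the authors' deposited table, and with a q of 0.295 by Cuffdiff it was not called. Hey2, another Hairy-family repressor, stood at 1.14 FPKM in the second and 2.12 FPKM in the first condition per the authors' deposited table, with a q of 0.129 by Cuffdiff. Olig1 and Olig2, factors of the oligodendrocyte lineage, were the most abundant bHLH genes, and Olig1 stood at 809.9 FPKM in the second and 937.2 FPKM in the first condition per the authors' deposited table. Neither was called, with q of 0.677 for Olig1 and 0.672 for Olig2 by Cuffdiff per the authors' deposited table.

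Genes that act on the stability of Id proteins were not called in any of 3 cases, beside 4.99% of all rows called either way. Cops5, a COP9 signalosome subunit and the most abundant of them, stood at 55.8 FPKM in the second and 69.8 FPKM in the first condition per the authors' deposited table, with a log2 fold of -0.32 and a q of 0.383 by Cuffdiff. Usp1, a deubiquitinase that stabilises Id proteins, stood at 35.1 FPKM in the second and 29.1 FPKM in the first condition per the authors' deposited table. Fzr1, an activator of the anaphase-promoting complex that marks Id2 for decay, stood at 33.0 FPKM in the second and 30.9 FPKM in the first condition per the authors' deposited table. Exons of Fzr1 overlap Mfsd12, those of Cops5 Cspp1, those of Acvr2a Orc4 and those of Olig1 Gm15966, each on the other strand. Protein levels were not measured.

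Folds over the whole table moved with transcript length, and the Id genes are of 1160 to 3849 nt. With all rows cut into 10 equal bins by length, the shortest bin, up to 1231 nt, had a median log2 fold of -0.22, and the longest, from 6848 nt, had one of 0.23. Id1 at 1160 nt lies in the shortest bin, and 17.4% of the rows in it had a fold as low or lower. Id3, at 1278 nt, lies in the next bin, where 4.61% of rows had such a fold. Id2, at 1969 nt, lies in the bin after that, where 0.987% did. Id4, at 3849 nt, lies in a bin with a median of 0.03, and 2.47% of its rows had a fold as low or lower.

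With the median of its own bin taken off, the log2 fold was -1.05 for Id2, -0.73 for Id4, -0.62 for Id3 and -0.32 for Id1. For the Smads, which are of 3775 nt and 6584 nt, it was -0.43 for Smad1 and -0.32 for Smad5. The sign of all 9 folds was kept in this step.

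**Figure D4:**
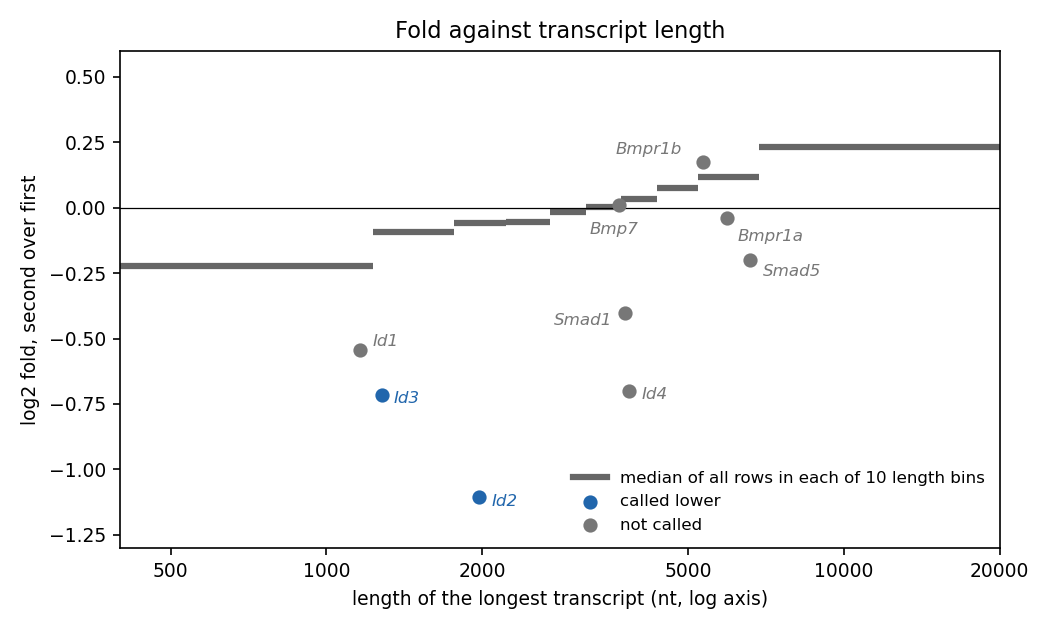
Log2 fold of second over first condition against the length of the longest transcript in nt on a log axis, with the 2 genes that fell in blue and the other 7 members in grey. Dark bars give the median of all rows in each of 10 equal bins of length, between -0.22 and 0.23. All 4 Id genes and both Smad genes lie below the bar of their own length.

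Markers of several cell types moved beside the Id genes. Over all rows, 1.83% fell and 3.17% rose, which is the background for each marker list. Of 13 astrocyte markers 12 had a row, of which 5 fell, Gfap, Aqp4, Slc1a2, Agt and Apoe, and 1 rose, Aldh1l1. Folds were negative for 9 of the 12 and positive for 3. The 12 summed to 903.2 FPKM in the second and 1170 FPKM in the first condition. The largest part of either sum was Slc1a3, which was not called, at 565.0 FPKM in the second and 543.6 FPKM in the first condition. Apoe stood at 140.7 FPKM in the second and 314.8 FPKM in the first condition. Gfap, the astrocyte intermediate filament, stood at 5.08 FPKM in the second and 29.7 FPKM in the first condition per the authors' deposited table. Of 9 oligodendrocyte lineage markers 6 had a row, with Gpr17 among those that fell and a sum of 1217 FPKM in the second and 1417 FPKM in the first condition. The part of either marker list in the falls of Id2 and Id3 was not tested.

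Neural stem cell markers, which check the labelled cell type, had rows for 7 of 8, with Nes at 169.8 FPKM in the second and 98.1 FPKM in the first condition and Vim and Sox2 not called per the authors' deposited table. In that list Nes rose and Fabp7 and Hes5 fell, and the sum was 3354 FPKM in the second and 5586 FPKM in the first condition. Most of that sum was Fabp7, a lipid-binding protein that radial glia make, at 2286 FPKM in the second and 4620 FPKM in the first condition per the authors' deposited table. Of 9 neuron markers 7 had a row, 1 fell, Elavl4, and the sums were 140.1 FPKM in the second and 139.0 FPKM in the first condition. Most of either sum was Map2, which was not called, at 127.4 FPKM in the second and 122.1 FPKM in the first condition. Of the 7 neuron markers 3 had negative and 4 had positive folds. Of 8 mesenchymal markers 2 had a row, of which Acta2 rose and Twist1 fell, with a sum of 56.3 FPKM in the second and 32.1 FPKM in the first condition. Of 5 microglia and 4 endothelial markers 0 had a row.

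The calls rest on the p-values as Cuffdiff deposited them, which were smaller than a normal reading of the deposited statistic gives. By the two-sided normal p of that statistic, adjusted by Benjamini-Hochberg over all rows, q was 0.0821 for Id2 and 0.797 for Id3, and 0 of the 9 members passed. On that reading 1 of the 61 wider genes passed, Hes5, at 0.0345, while Rgma was at 0.315, Sostdc1 at 0.189, Crebbp at 0.521 and Crim1 at 0.795.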

How the data were processed

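Poly(A) RNA of 6 libraries was, per the labels, made into libraries with a SOLiD Total RNA-Seq kit. Per the submitters' processing notes, TopHat2 2.0.9, Cufflinks 2.2.1 and Cuffdiff were used with build mm10. Not given in the sources used here are the annotation, the use of strand and the pooling of libraries into conditions. Per the file headers, each gene has 1 level per condition, a log2 fold, a score that serves as test statistic, a p-value and a q-value, all as the authors deposited them. The header names no unit for the deposited levels, and they were read as FPKM, which Cuffdiff writes in such columns. The q-values of called rows reach 0.0494 and those of others start at 0.0504 per the authors' deposited table.

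No test was refitted, because 0 values per library are held. The error of a log2 fold was taken as the fold over the deposited statistic. Positions and transcript lengths came from GENCODE M21 on GRCm38, which is mm10, and 98.7% of rows had a length. Symbols were matched as written for 11606 and through an older name for 460 of 12224. Near-identical transcripts were sought with blastn 2.17.0 at 90% identity over at least 100 nt. Promoter windows came from RefSeq on GRCm38.p6, with 8 of the 10 members matched. Id1 and Bmp7 had no entry. Motifs were searched on both strands. Python 3.11.15, pandas 2.3.3, scipy 1.17.1 and matplotlib 3.10.9 were used. The Benjamini-Hochberg step was tested on simulated data.

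The members and lists were chosen with earlier results of these data known. All members were named, and of the wider lists the called genes and the most abundant of each role. Some listed genes are not reported here by name. Genes named besides these, such as Bmpr2, Chrdl1, Fstl1, Ep300, Hes1 and Hey2, were chosen after their values were seen. The normal reading of the statistic was added after the data were seen.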

Additional observations from a re-analysis of the deposited data

How the results depend on the processing

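Of the 2 falls among members, 1 was left at a q of 0.01 and 1 for an absolute log2 fold of 1 or more, in both cases Id2, and 0 by the normal p of the deposited statistic. In the wider list the 4 falls became 2 at an absolute log2 fold of 1 or more, and by the normal p the falls became 1 and the rises 0. Over all rows, the 225 falls and 390 rises became 110 and 203 at a q of 0.01, 89 and 134 at an absolute log2 fold of 1 or more, and 32 and 41 by the normal p. A stricter threshold cannot raise a count. Counts stayed within 1.5 times with q recomputed over the rows present, with levels of at least 1 or 5, and with rows of 1 gene. They also stayed where the sign had to hold without the length median. That step could not change a call, since the smallest absolute log2 fold called was 0.55, above every length median. The median log2 fold of the 9 members was -0.40 as deposited and between -0.40 and -0.32 under 5 other scalings or pseudocounts. Of 45 alternative member folds, 45 stayed within the error of the fold and 44 kept their sign, the exception being Bmpr1a. The length medians, between -0.22 and 0.23, and the rescaling shift of 0.07 are smaller than the lowest member error, 0.29. These steps therefore could not move a fold past its error. The q of Sox4 became 0.0472 when recomputed over the rows present and 0.0463 with levels of at least 1, and that of Id4 0.0848 and 0.0831. Both settings count fewer tests than the 13980 that the deposited q-values imply. No paired analysis was possible because values per passage are not held. Leaving out single replicates and taking each Sox4 shRNA alone were not run for that reason. Depth is unknown and sets no stated limit.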

Other observations

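In the authors' deposited table the p-value lay below the two-sided normal p of its own test statistic in 99.2% of rows, and in all 9 members. An unadjusted p under 0.05 was deposited by Cuffdiff for 2155 rows, whereas the normal p was under 0.05 for 617. For Smad1 the deposited p was 0.0555 and the normal p 0.237, and for Id4 they were 0.0061 and 0.0937, by Cuffdiff and from the statistic per the authors' deposited table. The statistic had a standard deviation of 1.07 over all rows, and the fold over the statistic had a median of 0.35 on the log2 scale.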
